A study of Rattus norvegicus with 38 samples.

Results

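Livers of rats aged 18 months were compared with livers of the 12-month rats kept beside one toxicity study, that of bis_2-chloroethoyl_methane. The rats were taken by their titles: 13 carry 18 months and 5 carry bis_2-chloroethoyl_methane at 12 months, together 18 of the 38 rats measured. All were untreated male Fischer 344 rats, an inbred strain, kept at one site as sentinels, which are animals held in the study rooms to watch over colony health. The chemical in a title names only the study a rat was housed with. The 13 rats of 18 months were about 84 weeks old and came from 3 studies, beta-myrcene (5 rats), 5-hydroxymethyl-2-furfural (5 rats) and isoeugenol (3 rats). The 12-month rats were about 58 weeks old and all came from 1 study, called BCM below. A second study of 12-month rats, 1,2-dibromo-2,4-dicyanobutane (5 rats, DBDCB below), is given beside it, because the labels give both studies the same age. The labels name no altered allele and no treatment for any of these rats.

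RNA from the left liver lobe of each rat, labelled with Cy5, was hybridised with a Cy3-labelled pool of RNA from 63 such rats of 3 ages. The pool held 25 rats of 32 weeks, 25 of 58 weeks and 13 of 84 weeks. A deposited value is a standardized score: the log ratio of rat to pool, scaled so that each array has a mean near 0 and a standard deviation near 1 over its 20277 probes. A score of 1 therefore lies 1 standard deviation above the mean of that array. The most frequent value of an array, taken as a log ratio of 0, lay at scores from -0.106 to 0.111 on the 18 arrays. On the 18 arrays, 1 score unit stood for 0.247 to 0.421 units of the log ratio recovered from the steps of the values, with a median of 0.307. No source used here gives the base of the logarithm. Since each value is a ratio to pooled liver RNA, it gives no level of one gene against another and no check that the tissue was liver. Scanner signals were not used here, so it is not known which probes were near background, and precision rests on how many rats each group holds.

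The liver makes cholesterol from acetyl-CoA by a long chain of enzymes, whose genes are driven by the transcription factor SREBP2 when sterols in the cell run low, and its CCAAT-binding partner NF-Y commonly sits beside it. The rat liver is also strongly sexually dimorphic: the pulsed growth hormone of males keeps up male-biased enzymes such as Cyp2c11, and the steadier hormone of females keeps up another set. Hepatocytes secrete most plasma proteins, and liver holds resident macrophages (Kupffer cells), T cells and NK cells beside them.

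The BCM rats differed from the rats of 18 months at many probes. In limma with the study as a random block, 7593 of 20274 probes passed an adjusted p of 0.05 (37.5%), 3334 higher (16.4%) and 4259 lower (21%) at 18 months. The within-study correlation was negative (-0.0325), and limma without the block called 6765, so the block raised the count. One probe was kept for each named gene, and 3705 of 9648 genes were called (38.4% of genes, 18.6% higher and 19.8% lower). For 351 genes every rat of 18 months lay above every BCM rat (3.64%), and for 246 every one lay below (2.55%), together 6.19% of genes. Among the 3 studies of 18 months limma's F test called 0 probes, with 1266 at an unadjusted p under 0.05. The 2 studies of 12 months differed from each other: 9046 probes were called between BCM and DBDCB rats in a fit of 28 arrays (44.6%), with 4961 higher (24.5%) and 4085 lower (20.1%) in BCM. Of the named genes, 45.3% were called (21.8% higher and 23.5% lower). Between 18 months and DBDCB rats 5858 of 20274 probes were called in the fit of 28 arrays, 2925 higher and 2933 lower at 18 months. The mean profile of BCM rats correlated at 0.272 to 0.306 with those of the 3 studies of 18 months. With that of DBDCB rats it correlated at -0.142. All BCM rats belong to 1 study, so their age and their study cannot be told apart.

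The number of calls differed with how the spread between studies was estimated. Estimated on 28 arrays with age as the factor, the within-study correlation was 0.264, in place of -0.0325 in the main fit. With age as the factor the BCM and DBDCB rats share a level, so their difference counts as spread between studies. With BCM and DBDCB as separate groups on the 28 arrays it was -0.0259. Under the correlation of 0.264, called the larger spread between studies below, 530 probes and 302 genes were called (3.13% of genes, 1.99% higher and 1.14% lower). With each study's mean as the unit, limma called 0 probes, with 6349 at an unadjusted p under 0.05. Between rats of 18 months, the correlation over all probes ran from -0.0798 to 0.886 (median 0.450, 78 pairs). Between BCM rats it ran from 0.0854 to 0.522 (median 0.284, 10 pairs), and between the groups from -0.303 to 0.477 (median 0.149, 65 pairs). The lowest value joins 5-hydroxymethyl-2-furfural replicate 2 and BCM replicate 3. The labels give the same dyes on all arrays, so the direction was kept. Those rats and beta-myrcene replicate 4 were the least like their own studies, with mean correlations of 0.202, 0.252 and 0.185, and without all 3 the count was 7056 probes.

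Most genes of cholesterol synthesis were higher at 18 months. Of 20 measured, 14 rose and 1, Srebf2, fell, against 18.6% and 19.8% of all genes, and the median difference was 1.54 score units against -0.00671 over all genes. Sqle, squalene epoxidase, an enzyme that limits the rate of the pathway, scored 0.552, 2.41 and 5.01 (lowest, median and highest) at 18 months, against -2.98, -1.72, -2.0, -1.93 and -0.706 in the BCM rats. All 13 older rats lay above all 5 BCM rats. The difference was 4.36 (SE 0.592, adjusted p 5.98e-05), which is 1.45 on the recovered scale, or 2.73-fold if that scale is log2. If the log ratios were log10 kept to 4 decimals, recovered values expressed in log2 units would be 0.332 times as large.

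**Figure D1:**
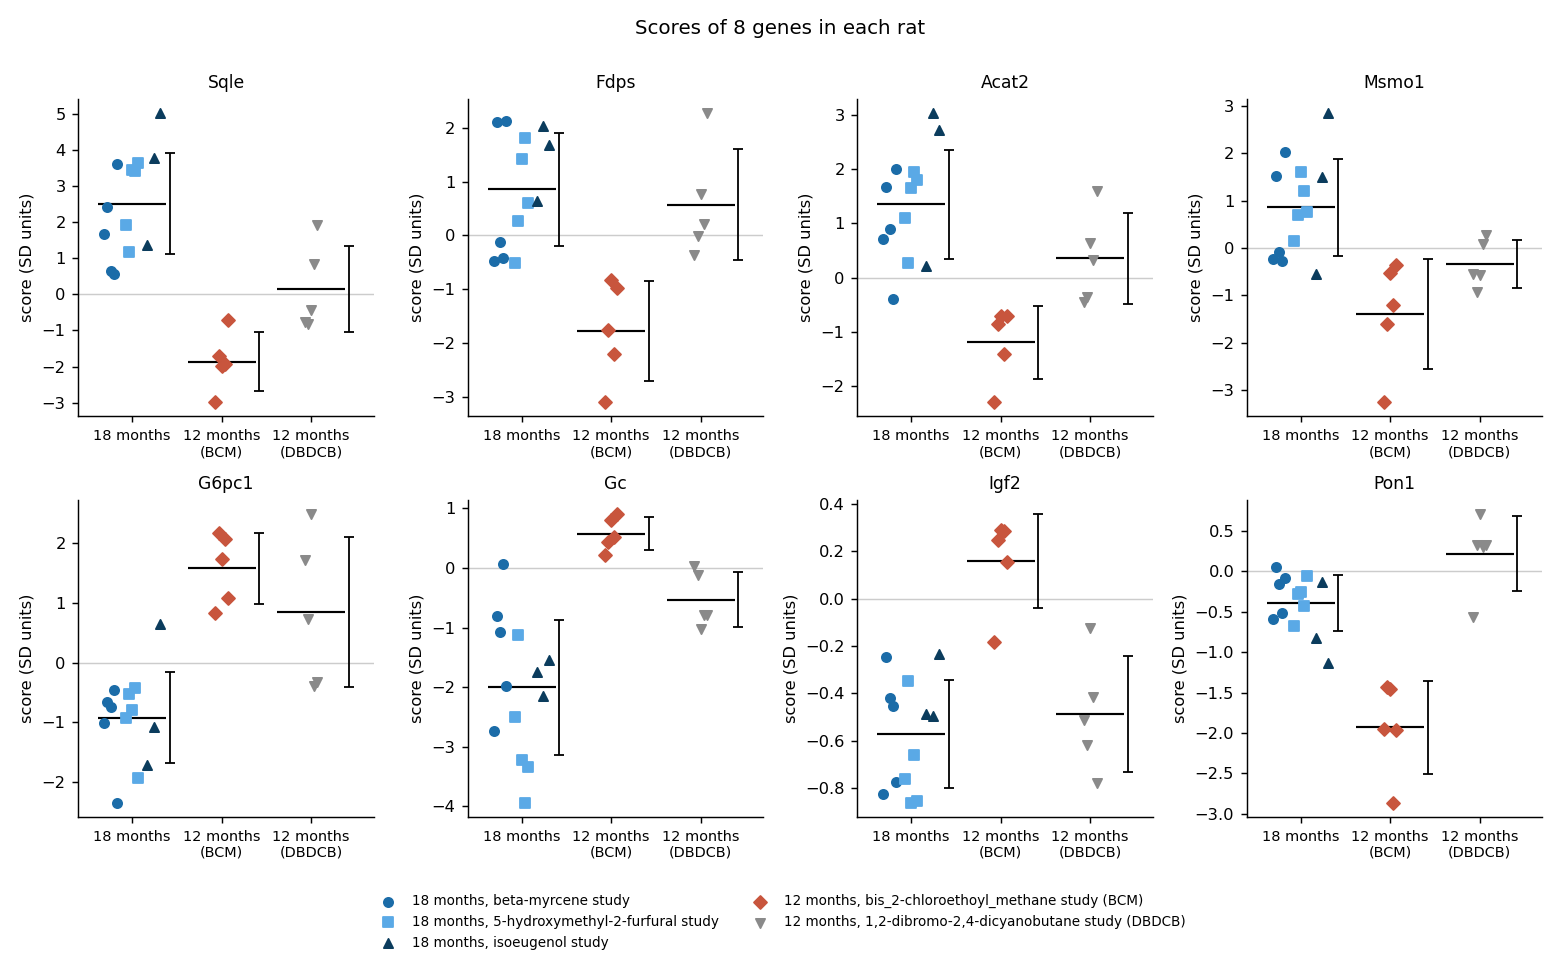
Scores of 8 genes in each rat, in units of the array's standard deviation, with 18 months on the left (markers show its 3 studies), the 12-month BCM rats in the middle and the 12-month DBDCB rats on the right. Horizontal lines are group means and bars are 1 SD. Sqle in the 13 rats of 18 months lies between 0.552 and 5.01, above all 5 BCM rats, while G6pc1 and Gc lie below them.

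The enzymes Acat2, Fdps and Msmo1 also rose. Acat2, which joins acetyl-CoA units at the start of the pathway, scored -0.394, 1.65 and 3.03 at 18 months, against -2.29, -0.862, -0.703, -1.4 and -0.703 in BCM rats, a difference of 2.54 (SE 0.432, adjusted p 0.000293). Fdps, which makes farnesyl diphosphate, scored -0.517, 0.633 and 2.12, against -3.1, -1.77, -0.829, -2.21 and -0.979 in BCM rats, a difference of 2.62 (SE 0.47, adjusted p 0.000418). For both genes the groups did not overlap. Msmo1, which removes methyl groups from early sterols, scored -0.552, 0.762 and 2.84, against -3.26, -1.62, -0.524, -1.2 and -0.356 in BCM rats, and 12 of 13 older rats lay above all BCM rats, apart from the lowest, isoeugenol replicate 1. Its difference was 2.24 (SE 0.489, adjusted p 0.00171). The other genes that rose were Sc5d, Idi1, Insig1, Pmvk, Tm7sf2, Hsd17b7, Stard4, Mvd, Ebp and Lss, from 1.07 for Lss to 2.19 for Idi1. Insig1 encodes the protein that holds SREBP2 in the endoplasmic reticulum when sterols are plentiful. Srebf2, the gene of SREBP2 itself, scored -1.11, -0.809 and -0.115 at 18 months, against -0.586, -0.042, 0.289, -0.22 and 0.24 in BCM rats, and fell by 0.651 (SE 0.172, adjusted p 0.00639). Its second probe differed by -0.234 (SE 0.184, adjusted p 0.337).

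The DBDCB rats lay between the groups for Sqle, with a mean of 0.15, and the older rats exceeded them by 2.35 (SE 0.563, adjusted p 0.00259). For Fdps their mean was 0.572 and the difference 0.278 (SE 0.452, adjusted p 0.685). Both comparisons use the same 13 older rats. Over the list, the median difference of 18 months from DBDCB was 0.898, beside 1.54 from BCM. BCM rats were below DBDCB rats in 8 of its 20 genes and above them in 3, beside 23.5% and 21.8% of all genes. With the larger spread between studies, 2 of the 14 rises were called, Sqle (adjusted p 0.0363) and Pmvk (adjusted p 0.0465), phosphomevalonate kinase. Pmvk, named after its values were seen, averaged -0.367 at 18 months, -2.14 in BCM rats and 1.13 in DBDCB rats, so that the older rats lay above one 12-month study and below the other. Without the 3 rats least like their studies, 12 genes rose and 1 fell. Each study of 18 months alone gave 5 (beta-myrcene), 12 (5-hydroxymethyl-2-furfural) and 9 (isoeugenol) rises.

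The promoters of the 3 largest rises with an entry in the RefSeq tables (build GRCr8) are shown, because members of the pathway moved together; each holds the 250 bases before the gene's start, 5′ to 3′ on the gene's strand. Capitals mark the NF-Y box CCAAT (or ATTGG on the other strand) and the sterol element form TCACNCCA (or TGGNGTGA). Fdps lies at chr2:176804817-176805066 (minus strand), Acat2 at chr1:50100590-50100839 (plus strand) and Msmo1 at chr16:29746863-29747112 (plus strand).
Fdps: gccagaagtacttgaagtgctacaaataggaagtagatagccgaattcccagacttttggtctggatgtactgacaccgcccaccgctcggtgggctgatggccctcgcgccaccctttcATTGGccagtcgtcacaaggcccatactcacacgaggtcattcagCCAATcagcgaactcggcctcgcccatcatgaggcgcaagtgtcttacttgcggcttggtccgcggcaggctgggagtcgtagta
Acat2: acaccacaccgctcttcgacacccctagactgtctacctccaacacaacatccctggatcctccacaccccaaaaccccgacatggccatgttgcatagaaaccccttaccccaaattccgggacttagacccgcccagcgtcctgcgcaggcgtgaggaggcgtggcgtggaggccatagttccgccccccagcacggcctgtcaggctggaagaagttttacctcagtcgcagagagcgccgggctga
Msmo1: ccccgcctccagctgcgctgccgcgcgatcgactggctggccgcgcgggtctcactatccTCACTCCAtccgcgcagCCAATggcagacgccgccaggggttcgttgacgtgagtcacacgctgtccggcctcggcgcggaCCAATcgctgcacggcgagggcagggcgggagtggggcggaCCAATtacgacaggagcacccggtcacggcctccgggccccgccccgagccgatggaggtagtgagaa
CCAAT was found in 13 of the 16 list members with an entry, 10 of 11 that rose and 3 of the other 5. It was found in 35.2% of the 7933 array genes with an entry and in 34.3% of all 27457 promoters. Acat2 holds neither motif in this window. TCACNCCA was found in 2 of the 16, Msmo1 and Srebf2, against 2.97% of the array genes; neither motif can hold the other. These matches are letters in a window and show no binding.

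In all, 13 genes were named as the largest rises with no overlap, and Sqle, Fdps and Acat2 were among them. Prelid3b, a protein of the PRELI family that moves phospholipids in mitochondria, scored -0.094, 2.33 and 3.12 at 18 months, against -0.217, -1.75, -3.08, -1.66 and -2.42 in BCM rats, a difference of 3.71 (SE 0.537, adjusted p 9.58e-05). Rarb, retinoic acid receptor beta, scored 0.006, 1.17 and 2.46, against -1.37, -0.925, -1.61, -3.37 and -1.24 in BCM rats, a difference of 2.96 (SE 0.378). Its other probe differed by -0.147 (SE 0.206, adjusted p 0.610), so the rise rests on 1 of its probes. Polr1f, a subunit of RNA polymerase I, which transcribes ribosomal RNA, scored -0.024, 1.36 and 1.84, against -1.9, -1.52, -2.32, -1.83 and -1.4 in BCM rats, and its difference of 2.95 (SE 0.277) had the smallest adjusted p of the 26 named genes (1.01e-05). Taf1d, a factor of the same polymerase, rose by 2.79, with 0.935 at its other probe (adjusted p 0.00364), and Nip7, which processes ribosomal RNA in the nucleolus, by 2.44. Snrpd1, a core protein of the spliceosome, rose by 2.47, and Trmt10c, part of the mitochondrial enzyme that trims transfer RNA, by 2.56, while its other probe differed by 0.00248 (adjusted p 0.992). Me1, malic enzyme, which supplies NADPH for lipid synthesis, rose by 2.6, with 1.89 at its other probe (adjusted p 0.00175). Havcr2, the immune receptor Tim-3, rose by 2.5, and Lix1l by 2.69 with 0.677 at its other probe (adjusted p 0.00899).

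The DBDCB rats, which share an age with BCM rats, stood elsewhere for several of these genes. Prelid3b averaged 1.87 at 18 months, with -1.82 in BCM and 2.16 in DBDCB rats, so the older rats differed from DBDCB by -0.284 (SE 0.481, adjusted p 0.7). Nip7 averaged 0.443, -2.0 and 0.948 at 18 months, in BCM and in DBDCB rats, and Trmt10c averaged 0.461, -2.1 and 0.415. Polr1f differed from DBDCB by 0.91 (SE 0.287, adjusted p 0.0184) and Taf1d by 1.18 (SE 0.384, adjusted p 0.022). With the larger spread between studies, 11 of the 13 rises and 5 of the 13 falls named here were called, with adjusted p from 0.0227 to 0.107 over the 26. Leaving out any 1 rat kept all 26 called in limma, with 0.00562 as the highest adjusted p. The 26 were picked from these same rats for calls without overlap, so this result was nearly fixed in advance.

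**Figure D2:**
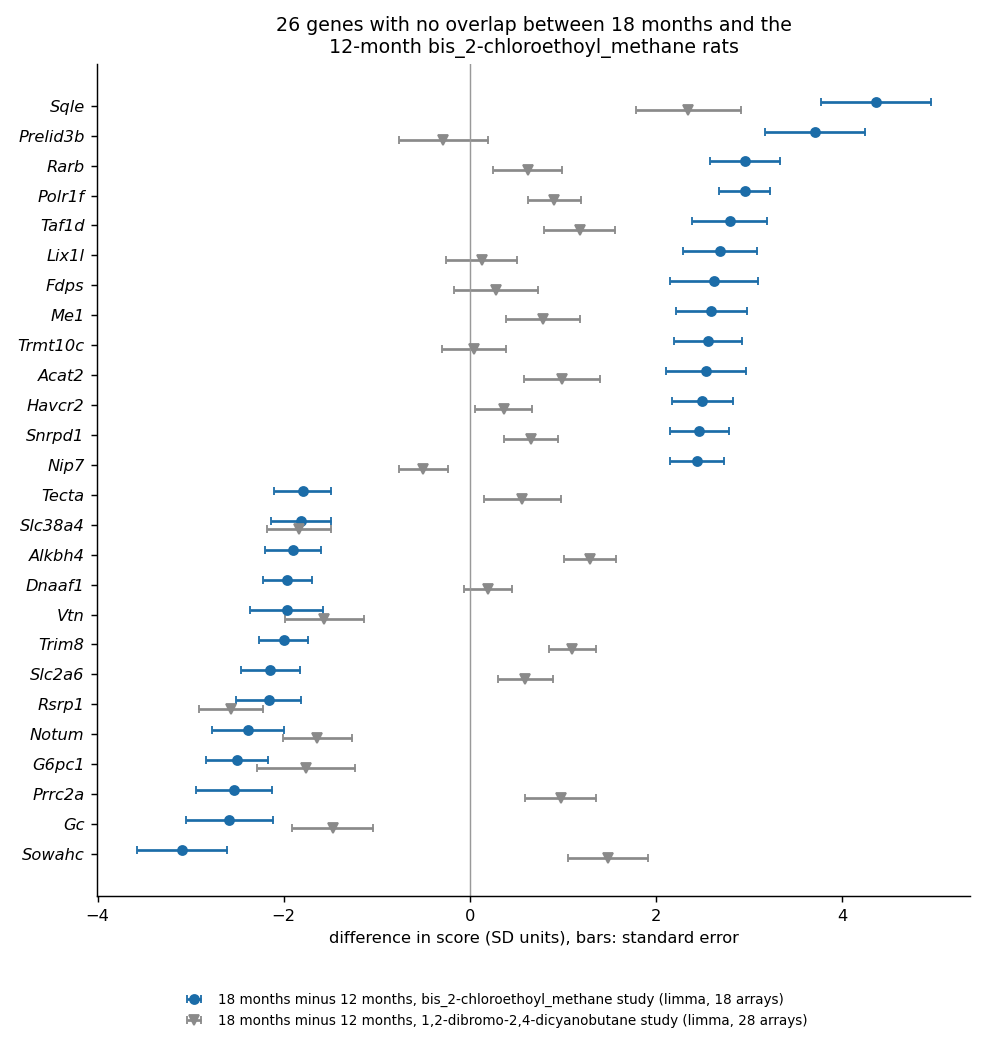
Differences in score for the 26 named genes, in units of the array's standard deviation, with standard errors. Circles are 18 months minus the BCM rats and triangles are 18 months minus the DBDCB rats, and both use the same 13 older rats. Sowahc, Prrc2a, Trim8, Alkbh4 and Slc2a6 lie left of 0 against BCM and right of 0 against DBDCB, while G6pc1, Gc, Notum, Rsrp1, Vtn and Slc38a4 lie left of 0 against both.

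Among the 13 largest falls without overlap were liver products. Gc, the vitamin D binding protein of plasma, scored -3.94, -1.99 and 0.074 at 18 months, against 0.223, 0.434, 0.81, 0.515 and 0.902 in BCM rats, a difference of -2.58 (SE 0.47, adjusted p 0.000473). G6pc1, the catalytic subunit of glucose-6-phosphatase, which releases glucose from the liver, scored -2.34, -0.785 and 0.651, against 0.832, 2.17, 1.73, 2.07 and 1.08 in BCM rats, a difference of -2.5 (SE 0.335, adjusted p 5.49e-05). Notum, an enzyme that inactivates Wnt proteins, scored -3.08, -1.2 and 0.613, against 1.18, 1.19, 1.55, 1.12 and 0.902 in BCM rats, a difference of -2.38 (SE 0.384). No older rat reached the lowest BCM rat in any of these genes. Vtn, the plasma adhesion protein vitronectin, fell by 1.97, and Slc38a4, an amino acid transporter of hepatocytes, by 1.81. Against DBDCB, G6pc1 differed by -1.76 (SE 0.525, adjusted p 0.013), Gc by -1.48 (SE 0.439, adjusted p 0.013) and Notum by -1.64 (SE 0.368, adjusted p 0.00149). Vtn differed from DBDCB by -1.56 (adjusted p 0.00672), Slc38a4 by -1.83 (adjusted p 0.000273) and Rsrp1 by -2.56 (adjusted p 5.48e-06), beside -2.16 from BCM.

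Other falls had the opposite sign against the other 12-month study. Sowahc, the largest fall among called genes without overlap, scored -3.34, -1.63 and -0.045 at 18 months, against 0.991, 0.451, 1.68, 1.92 and 1.98 in BCM rats, a difference of -3.09 (SE 0.486, adjusted p 0.000164). DBDCB rats averaged -3.17, so that the older rats lay 1.49 above them (SE 0.432, adjusted p 0.011). Prrc2a fell by 2.54 against BCM and differed from DBDCB by 0.977 (adjusted p 0.0565), and its 2 other probes fell by 0.691 and 0.562 (adjusted p 0.00519 and 0.0188). Trim8, a ubiquitin ligase, fell by 2.0 against BCM (its other probe differed by -1.08, adjusted p 0.00151), and it lay 1.1 above DBDCB (adjusted p 0.00205). Alkbh4, a dioxygenase, fell by 1.9 and lay 1.29 above DBDCB (adjusted p 0.00102). The other named falls were Slc2a6, a glucose transporter (-2.14, with -0.374 and adjusted p 0.261 at its other probe), Dnaaf1, which assembles the dynein of cilia (-1.96, with -1.02 and adjusted p 0.000819 at its other probe), and Tecta, a matrix protein known from the inner ear (-1.79).

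Shares of 18 gene lists called in each direction are set against the background in the plot of list shares. Cholesterol synthesis, ribosomal proteins and the proteasome had the largest shares of rises of these lists, and male-biased genes and hepatocyte products the largest shares of falls.

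**Figure D3:**
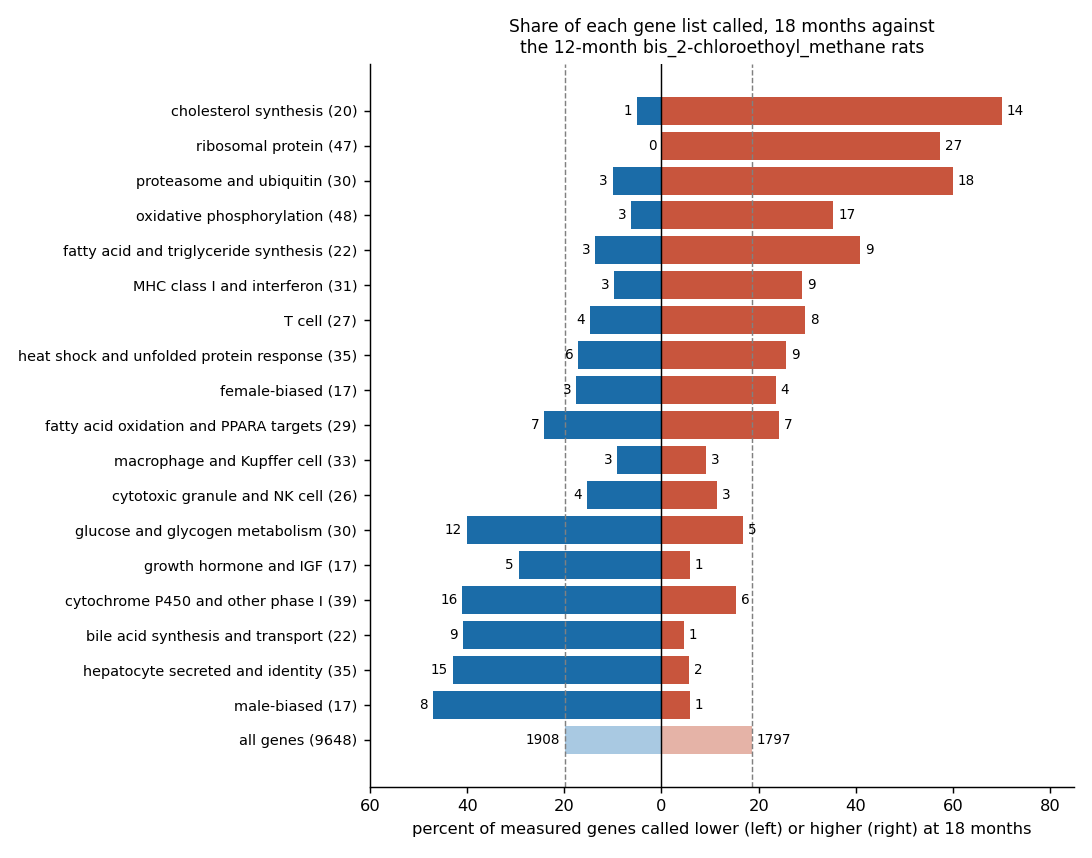
Percent of the measured genes of each list (number in parentheses) called higher at 18 months than in BCM rats (right, red) or lower (left, blue), with counts at the bar ends. Dashed lines mark the shares over all 9648 genes, 18.6% higher and 19.8% lower. Ribosomal protein genes show 27 rises and 0 falls, and male-biased genes 1 rise and 8 falls.

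Fatty acid and triglyceride synthesis followed cholesterol with 9 rises and 3 falls of 22 genes (40.9% and 13.6%, median 0.586). Over all genes 18.6% rose and 19.8% fell. Against DBDCB the median difference of 18 months for this list was 0.0555. BCM rats were below DBDCB rats in 8 of the 22 genes and above them in 2, beside 23.5% and 21.8% of all genes. With the larger spread between studies 1 rise was called, that of Me1, and 0 falls, with 6 rises and 1 fall at an unadjusted p under 0.05 in limma. Aacs, which turns ketone bodies back into lipid precursors, scored 0.576, 3.54 and 7.21 at 18 months, against -0.929, -0.959, -0.905, 1.42 and 1.0 in BCM rats, and the groups overlapped. Its difference was 3.44 (SE 0.85, adjusted p 0.00416), and DBDCB rats averaged -1.58. Acsl5, an acyl-CoA synthetase, scored -1.61, -0.549 and 0.961, against -2.21, -2.1, -1.78, -2.39 and -1.72 in BCM rats, without overlap, a difference of 1.5 (SE 0.315, adjusted p 0.00133). Acaca, acetyl-CoA carboxylase, which makes the building block of fatty acids, went the other way: it scored -0.855, -0.37 and 0.124, against 0.104, 0.228, 0.8, 0.472 and 1.14 in BCM rats, and fell by 0.942 (SE 0.174, adjusted p 0.000528). The falls of Mlxipl, the carbohydrate-sensing factor ChREBP, and Pklr, liver pyruvate kinase, were 0.563 and 0.39. Mlxipl was not called without BCM replicate 3 (adjusted p 0.0613) and in 1 further fit with a rat left out, and Pklr was not called without BCM replicate 5 (adjusted p 0.0522). Without BCM replicate 5, 1 fall of the list was called. Genes of fatty acid oxidation and targets of PPARA were called 7 higher and 7 lower of 29 (24.1% each), near the shares over all genes. The median difference of 18 months for these genes was -0.0232 from BCM and -0.87 from DBDCB. BCM rats were below DBDCB rats in 13 of the 29 and above them in 0. The rises numbered 4 without BCM replicate 2, and the falls 4, 3 and 4 without BCM replicates 3, 4 and 5. With the larger spread between studies limma called 0 genes of this list, with 1 rise and 1 fall at an unadjusted p under 0.05. Cyp4a3, a fatty acid hydroxylase, fell by 2.76 (SE 0.74, adjusted p 0.00704), and Hadhb, a subunit of the mitochondrial trifunctional enzyme, rose by 1.19 (SE 0.243, adjusted p 0.00107).

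Of 17 male-biased genes 8 fell and 1 rose (47.1% and 5.88%, beside 19.8% and 18.6% of all genes), with a median difference of -1.14. Under the larger spread between studies limma called 0 in either direction, with 3 falls and 0 rises at an unadjusted p under 0.05. Against BCM, beta-myrcene alone gave 0 falls, 5-hydroxymethyl-2-furfural alone 3 and isoeugenol alone 6. Stac3, listed for its higher level in male liver, scored -13.9, -7.87 and -3.56 at 18 months, against -2.08, -3.8, -3.06, -4.18 and -6.15 in BCM rats, a difference of -4.19 (SE 1.25, adjusted p 0.0136). The groups overlapped, with 9 of 13 older rats below all BCM rats. Hsd11b1, which reactivates glucocorticoids, scored -4.29, -1.33 and 0.708, against 1.26, 0.338, 1.72, 1.93 and 0.198 in BCM rats, a difference of -2.74 (SE 0.687, adjusted p 0.00448). Cyp2c11, the male-specific testosterone hydroxylase, averaged -3.92 ± 2.15 at 18 months and -1.55 ± 1.3 in BCM rats (SD, 13 and 5 rats), a difference of -2.37 (adjusted p 0.0447) that was not called in 8 of 18 fits with a rat left out (highest adjusted p 0.169, without BCM replicate 3). Cyp3a2, another male-specific hydroxylase, had the lowest mean of the list, -11.0 ± 8.05 at 18 months against -3.14 ± 1.90 in BCM rats, and was not called (difference -7.70, SE 3.27, adjusted p 0.0727, named after its values were seen). The count of falls was 3 without BCM replicate 3, 4 without BCM replicate 4, and 5 without BCM replicate 1, 2 or 5, beta-myrcene replicate 1, or the 3 rats least like their studies. Stac3 averaged -3.85 in BCM and -0.568 in DBDCB rats (difference -3.29, adjusted p 0.0487).

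Female-biased genes were called 4 higher and 3 lower of 17 (23.5% and 17.6%, near the 18.6% and 19.8% of all genes). In limma with the larger spread between studies 0 were called, with 4 rises and 2 falls at an unadjusted p under 0.05. Trim24, a transcriptional cofactor, rose by 5.42 (SE 1.14, adjusted p 0.0013): it scored -1.9, 4.21 and 6.83 at 18 months, against -1.93, -1.27, -3.34, -3.79 and -0.317 in BCM rats, and 12 of 13 older rats lay above all BCM rats. Its other probe differed by 1.17 (SE 0.678, adjusted p 0.187). DBDCB rats, with a mean of -2.9, lay beside BCM rats for this gene (difference between the studies 0.773, adjusted p 0.635). Prlr, the prolactin receptor, scored -1.13, 0.499 and 1.75, against -1.38, -1.44, -1.88, -2.73 and -0.734 in BCM rats, and rose by 1.97 (SE 0.359, adjusted p 0.000482). Acsm2 rose by 1.72 and Cyp2a1, a testosterone hydroxylase, by 1.39. The call of Cyp2a1 was lost without BCM replicate 4 (adjusted p 0.0537). The 3 that fell against the list's name were Hao2, a hydroxyacid oxidase, Fmo1, a flavin monooxygenase, and Cyp17a1, which makes androgens in the gonads, and 5 fell without beta-myrcene replicate 4. Hao2 was not called in 4 of 18 fits with a rat left out (highest adjusted p 0.103, without BCM replicate 3). Growth hormone and IGF signalling had 17 measured genes, of which 5 fell and 1, the kinase gene Jak2, rose. These are 29.4% and 5.88%, beside 19.8% and 18.6% of all genes. The median difference of 18 months was -0.276 from BCM and -0.0646 from DBDCB. Igf2, an insulin-like growth factor, scored -0.863, -0.495 and -0.236, against -0.184, 0.248, 0.289, 0.285 and 0.153 in BCM rats, and fell by 0.733 (SE 0.124, adjusted p 0.000284) without overlap. Cish, a feedback inhibitor induced by growth hormone through STAT5, scored -3.03, -1.68 and -0.628, against -0.689, 0.144, 0.634, -0.233 and 0.326 in BCM rats, and fell by 1.75 (SE 0.334, adjusted p 0.000656, and 0.0486 with the larger spread between studies, where it was the 1 gene of the list called). Igfbp4, a binding protein of the growth factors, fell by 1.86 (SE 0.342). The falls of Ghr, the growth hormone receptor, and Socs3 were not called without BCM replicate 3 (adjusted p 0.0908 and 0.0826), and 3 of the 5 falls were called without BCM replicate 5.

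Of 35 plasma protein and hepatocyte identity genes 15 fell and 2 rose (42.9% and 5.71%, beside 19.8% and 18.6% of all genes), with a median of -0.619, beside -0.00671 over all genes. Limma called 0 falls with the larger spread between studies, with 9 at an unadjusted p under 0.05, and 1 rise, that of Pon1. Apoc1, an apolipoprotein, scored -4.59, -1.51 and 0.885 at 18 months, against -0.099, 1.55, 1.03 and 2.29 in 4 BCM rats (BCM replicate 2 has no value and was left out of the fit for this gene), a difference of -3.31 (SE 0.824, adjusted p 0.00462). Serpina1, alpha-1-antitrypsin, scored -5.48, -2.58 and 0.887, against 0.817, 1.08, -0.079 and 2.14 in the same 4 BCM rats, a difference of -3.26 (SE 0.889, adjusted p 0.00837). In both genes 11 of 13 older rats lay below all BCM rats. Ahsg, fetuin-A, fell by 2.93, again from 4 BCM rats, and was not called without BCM replicate 5 (adjusted p 0.0718). Mttp, which loads lipid onto lipoproteins, rose by 1.19 (SE 0.24, adjusted p 0.000992). Pon1, paraoxonase of HDL, scored -1.14, -0.284 and 0.053, against -1.95, -1.43, -1.46, -2.86 and -1.96 in BCM rats, and rose by 1.54 (SE 0.203, adjusted p 4.82e-05) without overlap, while its other probe differed by -0.135 (adjusted p 0.620). The mean score of the list was -1.09 at 18 months, -0.470 in BCM rats and -0.451 in DBDCB rats. Without BCM replicate 5, 9 falls were called. In bulk liver, fewer cells of a type and less RNA per cell cannot be told apart.

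Among 39 phase I genes, the P450s included, 16 fell and 6 rose (41% and 15.4%, beside 19.8% and 18.6% of all genes), and of 22 bile acid genes 9 fell and 1 rose (40.9% and 4.55%). Limma called 0 genes of both lists with the larger spread between studies, with 7 falls and 1 rise in each at an unadjusted p under 0.05. Slc10a1, the sodium-dependent transporter that takes up bile acids, scored -0.09, 0.21 and 1.42 at 18 months, against 1.18, 1.53, 1.76, 1.35 and 2.04 in BCM rats, and fell by 1.13 (SE 0.214, adjusted p 0.000621), with DBDCB rats at 0.0624 on average. Slc27a5, bile acid-CoA ligase, fell by 1.14 (SE 0.297) and Scp2, a peroxisomal sterol carrier, by 1.03 (SE 0.295), while Slco1a4, an organic anion transporter, rose by 0.958 (SE 0.257). Cyp3a23-3a1, an inducible P450, scored -6.79, -3.75 and -0.286, against -0.922, -0.905, 0.616, 0.117 and -1.08 in BCM rats, and fell by 3.18 (SE 0.809, adjusted p 0.00502). The phase I falls numbered 10 without BCM replicate 3 and 9 without BCM replicate 5, and the rises 2, 1 and 3 without BCM replicates 3, 4 and 5 and 2 without beta-myrcene replicate 1. In glucose and glycogen metabolism 12 of 30 genes fell and 5 rose (40% and 16.7%), and 2 falls, G6pc1 and Gbe1, were called with the larger spread between studies. The falls numbered 7 without BCM replicate 1 and 6 without BCM replicate 5. The rises numbered 1 without BCM replicate 4, 2 without BCM replicate 1 or 3, beta-myrcene replicate 1 or 5-hydroxymethyl-2-furfural replicate 2, and 3 without BCM replicate 2 or 5, 5-hydroxymethyl-2-furfural replicate 5 or isoeugenol replicate 2. Beside G6pc1, Pfkfb2, which sets the level of a glycolytic activator, fell by 1.08 (SE 0.183, adjusted p 0.000289), while Pgk1, a glycolytic kinase, rose by 0.802 (SE 0.179, adjusted p 0.00205). Gbe1, the glycogen branching enzyme, fell by 1.55 without overlap at 1 probe and rose by 0.897 at another (adjusted p 0.000121 and 0.00362), so its direction is not settled.

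Ribosomal protein genes were higher at 18 months in 27 of 47 (57.4%) and lower in 0, beside 18.6% and 19.8% of all genes. There was 1 fall where one of BCM replicate 2, beta-myrcene replicate 2 or 3, 5-hydroxymethyl-2-furfural replicate 3 or isoeugenol replicate 3 was left out. The median of the list was 0.738 beside -0.00671 over all genes. Rpsa, of the small subunit, scored -0.51, 0.666 and 1.54 at 18 months, against -0.431, -1.61, -2.42, -1.69 and -2.75 in BCM rats, and rose by 2.37 (SE 0.332, adjusted p 7.38e-05). Rpl21, of the large subunit, scored -0.683, 0.246 and 1.16, against -0.893, -1.58, -1.41, -2.22 and -2.12 in BCM rats, without overlap, and rose by 1.81 (SE 0.264, adjusted p 0.000102). Rps25 rose by 1.75 and Rpl11 by 1.72. Of 30 proteasome and ubiquitin genes 18 rose and 3 fell (60% and 10%, median 0.538), with 1 fall without BCM replicate 3, BCM replicate 5 or beta-myrcene replicate 1. Psmc6, an ATPase of the proteasome's cap, scored -0.069, 0.727 and 1.92, against -1.23, -1.26, -1.77, -1.89 and -1.87 in BCM rats, and rose by 2.34 (SE 0.25, adjusted p 1.71e-05) without overlap. The core subunits Psma4, Psma2 and Psma1 rose by 1.8, 1.75 and 1.45, while Psmc1, another ATPase of the cap, fell by 0.577 without overlap. Of 48 genes of oxidative phosphorylation 17 rose and 3 fell (35.4% and 6.25%, median 0.247), with 5 falls without isoeugenol replicate 3. Cox4i1, a subunit of cytochrome oxidase, scored -1.71, -1.1 and -0.09, against -2.01, -2.35, -2.62, -3.09 and -3.26 in BCM rats, and rose by 1.7 (SE 0.251, adjusted p 0.000107), followed by Cox6c (1.67), Uqcrc2 of complex III (1.61, with 0.492 at its other probe) and Atp5mc2 of ATP synthase (1.49).

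The other 12-month study gave different values. The median difference of 18 months from DBDCB was 0.00594 for ribosomal proteins, 0.00249 for the proteasome list and -0.269 for oxidative phosphorylation. BCM rats were below DBDCB rats in 24 of 47 ribosomal protein genes and above them in 9, and the proteasome list gave 13 and 4 of 30. Over all genes, 23.5% were lower and 21.8% higher in BCM than in DBDCB rats. Mean scores of the ribosomal list were 0.396 at 18 months, -0.345 in BCM and 0.258 in DBDCB rats. With the larger spread between studies, 7 ribosomal, 3 proteasome and 3 oxidative phosphorylation rises were called. BCM replicate 1, at 0.120, was the only BCM rat whose ribosomal mean reached the older rats, the lowest of which was beta-myrcene replicate 4 at 0.0694.

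**Figure D4:**
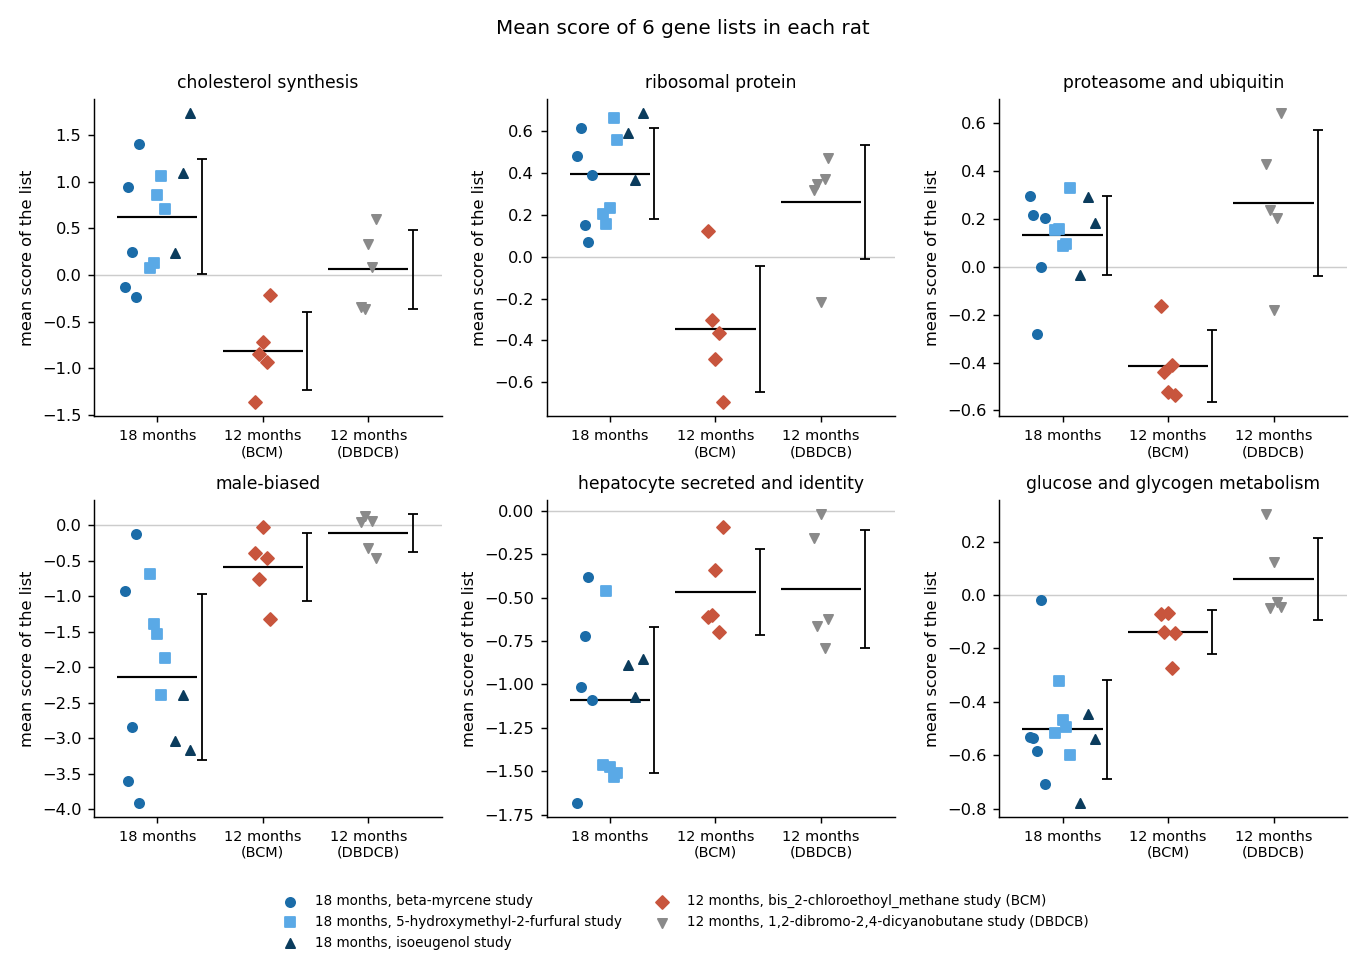
Mean score of 6 gene lists in each rat, with 18 months on the left (markers show its 3 studies), BCM rats in the middle and DBDCB rats on the right; lines are group means and bars 1 SD. The ribosomal and proteasome lists have their lowest group means in BCM rats (-0.345 and -0.414), and the male-biased and hepatocyte lists at 18 months (-2.14 and -1.09).

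Genes of heat shock and the unfolded protein response were called 9 higher and 6 lower of 35 (25.7% and 17.1%, beside 18.6% and 19.8% of all genes). In limma with the larger spread between studies 0 were called, with 5 rises and 5 falls at an unadjusted p under 0.05. Hspa5, the main chaperone of the endoplasmic reticulum, scored -1.95, -0.982 and 0.537 at 18 months, against -1.73, -2.76, -2.78, -2.74 and -2.74 in BCM rats, and rose by 1.64 (SE 0.326, adjusted p 0.000863). Creld2, a protein induced by endoplasmic reticulum stress, scored -0.966, -0.256 and 1.71, against -1.23, -2.01, -1.72, -1.57 and -1.53 in BCM rats, and rose by 1.64 (SE 0.384) without overlap. Canx, the lectin chaperone calnexin, scored -3.04, -1.66 and 0.158, against 0.02, -0.002, 0.319, 1.01 and 0.93 in BCM rats, and fell by 2.02 (SE 0.471, adjusted p 0.00275). DBDCB rats averaged 1.09 for Hspa5 and 1.03 for Canx, above both other groups.

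In the MHC class I and interferon list 9 of 31 genes rose and 3 fell (29% and 9.68%, beside 18.6% and 19.8% of all genes), with 5 falls without isoeugenol replicate 1 or 3. Psmb8 and Psmb9, subunits of the immunoproteasome, rose by 1.5 and 1.23; Psmb9 scored -0.53, 0.13 and 0.614 at 18 months, against -1.02, -0.805, -1.38, -1.09 and -1.48 in BCM rats, without overlap (SE 0.157, adjusted p 4.15e-05, and 0.0362 with the larger spread between studies). Irgm, an interferon-induced GTPase, rose by 1.1, while Ifitm3, which blocks virus entry, fell by 0.884 and Oas1b, a relative of the oligoadenylate synthetases, by 0.979. Irf9, a factor of interferon signalling, fell by 1.21 at 1 probe and differed by 0.00729 at the other (adjusted p 0.975). Psmb9 was the 1 gene of that list called with the larger spread between studies. Of 27 T cell genes 8 rose and 4 fell (29.6% and 14.8%), and with the larger spread limma called 0 rises, with 3 at an unadjusted p under 0.05, and 1 fall, that of Cd96. Ptprc, the leukocyte marker CD45, scored -0.63, 0.852 and 1.8, against 0.053, -0.109, -1.09, -0.018 and -0.706 in BCM rats, and rose by 1.11 (SE 0.283, adjusted p 0.0052). Cd96, a receptor of T and NK cells, scored -1.17, -0.426 and 0.047, against 0.607, 0.701, 0.525, 0.451 and 0.512 in BCM rats, and fell by 1.07 (SE 0.179, adjusted p 0.000267), with -0.305 and an adjusted p of 0.137 at its other probe. Of the T cell rises, 3 were called without BCM replicate 3, BCM replicate 5 or the 3 rats least like their studies, and 5 without beta-myrcene replicate 1 or isoeugenol replicate 2.

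Calls in the cytotoxic granule and NK cell list and in the macrophage list were no more frequent than over all genes (18.6% higher and 19.8% lower). Of 26 cytotoxic and NK cell genes 3 rose (11.5%), Ccl5, a chemokine (1.58), Eomes, a transcription factor (1.28), and Gzma, granzyme A (0.992), and 4 fell (15.4%), Klrk1, the receptor NKG2D (-1.33), Ctsw, cathepsin W (-1.17), Klrb1c and Klrg1. Without BCM replicate 5 none of the 3 rises was called (adjusted p 0.0752, 0.0602 and 0.112), and 1 was called without BCM replicate 3. Klrb1c was not called in 5 of 18 fits with a rat left out (highest adjusted p 0.12, without BCM replicate 1). Limma called 0 genes of the list with the larger spread between studies, with 0 rises and 3 falls at an unadjusted p under 0.05. Macrophage genes were called 3 higher and 3 lower of 33 (9.09% each), and 0 in limma with the larger spread, with 1 rise and 2 falls at an unadjusted p under 0.05. The macrophage rises numbered 5 and 6 without beta-myrcene replicates 2 and 3. Lyz2, lysozyme, rose by 1.8 (SE 0.414, adjusted p 0.00251), with 0.454 and an adjusted p of 0.379 at its other probe, and Cx3cr1, a chemokine receptor of monocytes, fell by 0.865 (SE 0.155, adjusted p 0.000417).

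Markers of the cells that liver tissue can hold were examined beside these lists. Of 6 hepatocyte markers measured 4 were lower at 18 months (Tf, Serpina1, Cps1 and Ass1), with a mean over the markers of -1.73 (range -2.90 to -0.589) at 18 months and -0.777 (-1.02 to 0.146) in BCM rats, given as medians over rats. No marker of Kupffer cells (6 measured), NK cells (4), B cells (3), exocrine pancreas (4), adipose and muscle (2) or erythroid cells (1) was called. Among 5 T cell markers Cd3e and Cd3g were higher and Cd3d lower, and the call of Cd3g was lost without BCM replicate 3 (adjusted p 0.0537) and that of Cd3d in 3 of 18 fits with a rat left out (highest adjusted p 0.115, without BCM replicate 3). S100a9 of neutrophils and Epcam of bile duct were higher, and Kdr of endothelium and Rgs5 of stellate cells lower, 1 marker in each set. What these cells add to the results above was not tested. The 19 lists not described had between 14.3% (B cell and plasma cell) and 50% (complement and coagulation) of their genes called, and medians from -0.369 to 0.336.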

How the data were processed

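Liver RNA of 38 rats was measured on 2-colour Agilent arrays, each rat in Cy5 against a common pool in Cy3, per the labels. Images were read with Agilent Feature Extraction, per the series' design text. The deposited values are standardized scores made by the authors from log ratios of rat to pool. Their background correction, dye normalization and standardization were not stated in any label or header; array means of -0.00112 to 0.00122 and SDs of 0.992 to 1 show the standardization. Log ratios were recovered from the scores on the assumption that they had steps of 0.001, and all values lay within 0.00065 of that grid. The design had assumed log2 ratios or scores, and the scores were tested as deposited.

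The 20274 probes with values were tested in limma 3.58.1 (R 4.3.3, statmod 1.5.0) with the age group as factor, the study as a random block and Benjamini-Hochberg adjustment, called at 0.05. The order of replicate numbers is accession order. The labels do not say that rats of a study were separately kept, so p-values measure the spread between these rats. Platform annotation gave 1 symbol to 12594 probes, several to 5 and none to 7678, and 12572 matched RefSeq symbols. One probe stood for each of 9648 tested genes, chosen for complete values first and for the widest SD over all 18 arrays second. Named were the 13 largest rises and 13 largest falls among called genes without overlap, up to 4 called members with the largest differences in each described list, and cell type markers. Where few members of a described list were called in a direction, all were named. Those beyond the first 4, such as Igf2, Socs3 and Pon1, were named after their values were seen. The members and lists were chosen with earlier results of these data known. The fit was tested on simulated data of independent rats with no differences between studies, which cannot show how it behaves where studies differ. Figures and tables used Python 3.11.15 with numpy 2.4.6, pandas 2.3.3 and matplotlib 3.10.9. Alternatives covered the handling of the study, the arrays fitted, the scaling, the probe filter, the call rule and each rat left out. The larger spread between studies and the fit without 3 rats were chosen after seeing the data.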

Additional observations from a re-analysis of the deposited data

Results flagged for a closer look

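Within each study of 5 rats, a rat was picked out where its gap to the nearest other rat was large against the whole range of the study (Dixon's test). There were 369 such tests of named genes, 29 rats' values were picked out, and chance alone picks about 5%. Scores below are in units of the array's standard deviation, each followed by the range of the other 4 rats of its study.

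In BCM replicate 4 it was Rarb -3.371 (-1.607 to -0.925). In beta-myrcene replicate 5 it was G6pc1 -2.342 (-1.005 to -0.462). In beta-myrcene replicate 1 the scores apart were Slc2a6 -1.668 (-0.644 to -0.265), Jak2 0.276 (-0.496 to -0.357) and Pck2 0.207 (-0.111 to -0.022). In BCM replicate 1 the scores apart were Trim8 0.289 (1.247 to 1.548), Igf2 -0.184 (0.153 to 0.289), Pgk1 0.282 (-0.582 to -0.346) and Hspa5 -1.731 (-2.783 to -2.74). In BCM replicate 5 the scores apart were Dnaaf1 2.129 (0.193 to 0.541) and Acsm2 1.711 (0.358 to 0.744). In 5-hydroxymethyl-2-furfural replicate 2 the scores apart were Dnaaf1 -0.4 (-1.406 to -1.253), Socs3 0.218 (-1.143 to -0.921), Srebf2 -0.201 (-1.022 to -0.809), Mlxipl -0.038 (-0.81 to -0.744) and Pfkfb2 0.161 (-1.149 to -0.817). The same rat stood apart at Irf9 0.533 (-0.83 to -0.645), Ifitm3 -0.031 (-1.041 to -0.811), Oas1b 0.839 (-0.481 to -0.233), Ptprc 1.802 (0.833 to 1.098) and Cd3d 0.347 (-0.749 to -0.631). The same rat stood apart at Klrk1 0.045 (-1.808 to -1.416), Sel1l 3.446 (-0.067 to 0.512) and Psmd2 0.234 (-1.033 to -0.84). In 5-hydroxymethyl-2-furfural replicate 3 it was Pklr -0.223 (0.273 to 0.446). In beta-myrcene replicate 4 it was Slc10a1 0.803 (-0.09 to 0.162). In beta-myrcene replicate 3 it was Fcgr1a -0.133 (0.481 to 0.679). In BCM replicate 3 it was Cd14 0.128 (-0.642 to -0.472). In 5-hydroxymethyl-2-furfural replicate 5 it was Rpl21 1.164 (0.171 to 0.407). Of these values, 13 came from 5-hydroxymethyl-2-furfural replicate 2, which is also among the 3 rats least like their own study. The reason was not tested.

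The 2 studies of 12 months differed in 9046 probes by a direct test in limma, 4961 higher and 4085 lower in BCM than in DBDCB rats, although the labels give both the same age.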

How the results depend on the processing

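Against the 7593 probes called between 18 months and BCM, limma called 0 with study means as the unit (6349 at an unadjusted p under 0.05), 344 with all 38 arrays in the fit and 530 with the within-study correlation of 0.264. Each older study alone against BCM gave 2297 (beta-myrcene), 4355 (5-hydroxymethyl-2-furfural) and 1949 (isoeugenol). Testing 1 probe per named gene gave 3660 of 9648, and asking also for a difference of at least 1 gave 2687. Leaving out each rat gave 5817 (without BCM replicate 3) to 8516 (without beta-myrcene replicate 4). The settings that ignored the study (6765), centred arrays on their median (7467), used recovered log ratios (7783), normalized by quantiles (7053) or left out the 25% of probes with the lowest SD (5699) stayed within 1.5 times. Between the 2 studies of 12 months the count was 9046, with 3215 under the correlation of 0.264 and 8164 to 8908 with each rat left out. Among the 18-month studies it was 0, and 0 to 1 with each rat left out. None of the 123 named genes reversed under any setting. They were picked for their calls in the main fit on largely the same arrays, so a reversal was unlikely from the start. Of the 123, 97 were no longer called with the correlation of 0.264, 101 with 38 arrays and 123 with study means, and the cause was not tested. No paired analysis was possible because replicate numbers only name the rats in accession order. Spot signals were not used here, so what signal over background limits is unknown.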

Other observations

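Gene lists outside the main account are given here by their counts at 18 months against BCM rats, beside 18.6% of all genes called higher and 19.8% called lower. Of 28 NRF2 and antioxidant genes, which protect cells against oxidants, 10 were higher and 2 lower (median difference 0.287 score units). Of 21 genes of phase II conjugation, which makes foreign compounds soluble, 8 were higher and 2 lower (median 0.183). Of 46 genes of amino acid metabolism and the urea cycle, 3 were higher and 11 lower (median -0.248), and of 23 endothelial genes 1 was higher and 9 lower (median -0.199). In the cell cycle list 2 of 36 genes were higher and 6 lower (median -0.273). Against DBDCB rats the medians were -0.224 for the NRF2 list, -0.837 for phase II and -0.757 for amino acid genes. They were 0.0471 for endothelial and -0.0514 for cell cycle genes. With the larger spread between studies, limma called 0 genes of any of these lists. At an unadjusted p under 0.05 it gave 5 rises and 1 fall for NRF2 and 4 and 0 for phase II. Amino acid genes gave 3 and 7, endothelial 0 and 5, and cell cycle 1 and 4. These comparisons carry the same limit as the others, since all BCM rats came from 1 study.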
